A study of Homo sapiens with 14 samples.

Results

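Primate LINE-1 (L1) RNA was followed copy by copy in A375 cells, an established human melanoma cell line, in which ZC3H18 (Z18) had been edited. The copies were those that the RepeatMasker annotation of hg38 places in L1HS or in a subfamily whose name begins with L1PA, wherever RNA was counted on the strand of the element itself. In all, 23779 such copies in 18 subfamilies had a sense-strand count in at least 1 of 14 libraries, out of 579614 transposable element (TE) copies in 1115 subfamilies. A further 96515 copies belonged to older L1 subfamilies and served as a comparison within each library.

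L1 elements are retrotransposons that copy themselves through an RNA intermediate. A complete copy carries an internal sense promoter at its 5′ end, encodes the RNA-binding protein ORF1p and the endonuclease and reverse transcriptase ORF2p, and ends in a poly(A) signal. L1HS is the human-specific subfamily and holds the copies that are still mobile, while the L1PA subfamilies are successively older, so that their copies have gathered more substitutions. The NEXT and PAXT complexes hand nuclear transcripts to the RNA exosome, and Z18 is a partner of that machinery.

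The 14 poly(A)-selected, stranded RNA-seq libraries fell into 5 groups. The bulk control libraries (n = 3) came from A375 cells transfected with a Cas9 vector that had no guide RNA. The bulk Z18 CRISPR libraries (n = 3) came from cells transiently transfected with Cas9 and 1 guide RNA against Z18. Both bulk groups were selected with puromycin and are mixtures of cells in which editing may differ. The other libraries were each 1 single-cell clone: 2 were wild type (WT), 3 carried heterozygous loss of Z18 (-/+) and 3 carried 1 truncated Z18 allele (trunc/+). Of the trunc/+ clones, 1 had the homology-directed edit and 2 had other truncating mutations seen in patients. Nothing in the labels ties the bulk libraries of a group to separate cultures, so each bulk p-value reflects only how far these libraries spread, part of which may be technical. Between clone groups, a p-value reflects the spread between clones with 1 library each, part of which may also be technical. In bulk RNA, fewer cells transcribing a copy and less RNA per cell cannot be told apart.

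Depth ran from 15615675 to 33018360 aligned fragments, with bulk control 2 and bulk control 3 among the shallowest 3 libraries. Bulk control 3 stood apart, with 69.5% of its L1HS and L1PA counts on the antisense strand against 25.7% to 40.6% elsewhere. It also held 30689 counts per 1000000 aligned fragments (CPM) over TE copies of the rRNA class, against 5977 to 12701 in the other 13 libraries. Z18 mRNA was at 38.1, 13.9 and 48.7 FPKM in the bulk controls and at 10.4, 11.9 and 12.8 in the bulk CRISPR libraries. It was at 23.5 and 21.97 in the WT clones, at 16.2, 17.1 and 16.1 in the -/+ clones and at 14.3, 13.98 and 8.70 in the trunc/+ clones. The bulk groups did not overlap, but bulk control 2 was close to the CRISPR libraries, and the difference did not pass the adjusted threshold in limma (-1.28 ± 0.42 on the log2(FPKM + 1) scale, adjusted p = 0.176). The melanocyte markers MLANA and TYR were listed at 0 in every library, while SOX10 was at 10.8 to 33.6 FPKM in the bulk libraries and at 47.8 to 212 in the clones. The summed markers of haematopoietic and endothelial cells did not pass 7.54 and 0.351 FPKM in any library, and those of fibroblasts did not pass 9.27. The 5 epithelial markers summed to 176 to 954 FPKM, most of it the keratin KRT18. Some marker sums separated the bulk groups. The 6 fibroblast markers summed to 1.85 to 2.41 FPKM in the bulk controls and 5.40 to 7.06 in the bulk CRISPR libraries, and the 9 melanoma markers to 17.7 to 31.5 and 34.5 to 42.7. The epithelial markers summed to 517 to 954 and 373 to 485 FPKM, and the 3 endothelial markers to at most 0.206 and 0.240 to 0.312. The haematopoietic markers overlapped between the bulk groups.

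Where an L1 transcript could start can be read from the first 30 bases of the annotated copy on its own strand. There, the letters CAAGATGG mark the binding element of YY1, the factor that places the L1 start site. They are in capitals in the following copies, which are named again with their values.
ENPP7P2 intron L1PA5, chr3:75483459-75489612 (hg38, - strand): gggggtggagcCAAGATGGctgactagaaa
F8A region L1PA13, chrX:155353408-155359891 (hg38, + strand): gggagtggcCAAGATGGctgactagaagca
L1PA3 pair, chrUn_KI270751v1:58558-64694 (hg38, + strand): ggagaaggagccaagctggccgaataggaa

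The motif is absent from this window in the L1PA3 pair. The motif was searched on the strand of the copy only, and 3421 of the 4338 copies of 6000 bp or more (78.9%) held it in this window. By subfamily it was in 93.4% of such L1HS copies, 89.6% of L1PA2, 82.1% of L1PA3 and 73.9% of L1PA4. It was in 74.6% of L1PA5, 70.9% of L1PA6 and 60.4% of L1PA7. These are descriptions of letters in a window, not of factor binding.

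L1 RNA was spread over many copies at low level. Estimated counts share reads that map to several copies among them, and unique counts use only reads that map to 1 place. Averaged over the 14 libraries, all copies together had 2147 CPM by estimated counts and 1762 CPM by unique counts (82.1%). Most copies were barely seen, since 10067 had counts in 1 library only and 629 had counts in all 14. At a mean of 1 CPM or more there were 339 copies by estimated and 283 by unique counts, and 356 copies together reached 50% of all counts. The 5 copies with the highest mean level took 5.59% of the counts. By unique counts 4106 copies had none in any library. Copies of 6000 bp or more made up 18.2% of the copies and 36.0% of the counts, and the AATAAA poly(A) signal was in the last 100 bases of 64.3% of them, against 51.3% of all copies.

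The share of counts that could be placed uniquely differed between the youngest and older subfamilies. L1HS, whose 993 copies differ from their consensus by a median of 0.6%, had 52.7% of its counts placed uniquely, and L1PA2, at 2% divergence, had 72.1%. From L1PA6 (6.8% divergence, 91.6% unique) to L1PA17 (16.2%, 92.6%) the share was 79.4% or more, with L1PA12 the lowest of them at 79.4% and L1PA8A the highest at 95.5%. Values of a single L1HS copy therefore rest on the sharing of reads more than those of a single L1PA7 copy (94.2% unique). Over the 18 subfamilies, Spearman's rho of divergence with the unique share was 0.49, a description across subfamilies that share libraries. Per megabase of the copies with counts, L1PA12 had 76.8 CPM, L1PA10 75.03, L1PA14 67.8 and L1PA17 65.7. The youngest subfamilies were lower on this scale, with 30.7 for L1HS, 31.4 for L1PA2, 29.0 for L1PA3 and 28.9 for L1PA4. The lowest was L1PA8A at 23.2. Copies without any count were not in this length.

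**Figure D1:**
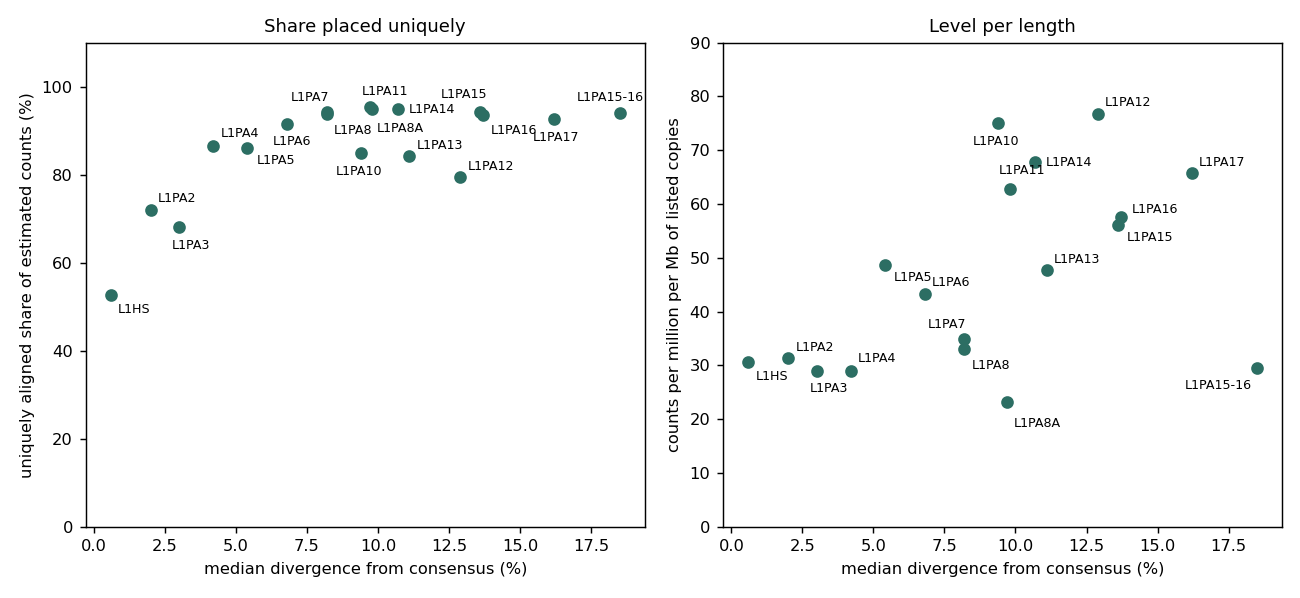
Left, the share of estimated counts that were placed uniquely (%) and right, the level per length (CPM per megabase of copies with counts), each against the median divergence from the consensus (%), with 1 point per subfamily averaged over 14 libraries. L1HS at 0.6% divergence has the lowest unique share (52.7%), and L1PA12 has the highest level per length (76.8).

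Copies that could encode both proteins were few. An open reading frame at most 5 codons shorter than the 1275 codons of an intact L1HS copy in LINC00824 was found in 216 copies of 6000 bp or more. Of these, 137 also had a frame of at least 330 codons before it, and 103 of the 137 were L1HS and 33 L1PA2. Together the 137 copies had a mean of 32.2 CPM by estimated and 13.8 CPM by unique counts.

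The L1PA3 value held a pair of copies that the reads could not separate. The copies at chrUn_KI270751v1:58558-64694 (+ strand) and chrUn_GL000214v1:39519-45655 (- strand), on unplaced contigs of hg38 with no annotated gene, are 6137 bp each with 0 mismatches to each other. They were the 2 copies with the highest mean estimated level, at 34.9 and 26.8 CPM, and together took 16.2% of L1PA3 counts with 0.0729 unique CPM between them. The first copy was given from 14.02% to 99.4% of the counts of the pair, depending on the library. Only the sum of both is therefore described. The pair had 104.9, 67.3 and 31.3 CPM in the bulk controls and 135, 169 and 133 CPM in the bulk CRISPR libraries, so every bulk CRISPR library was above every bulk control. In the clones it had 23.1 and 19.0 CPM in WT, with 10.3, 44.1 and 47.6 in -/+ and 25.3, 45.0 and 8.95 in trunc/+, and the 3 groups overlapped. Without the pair, L1PA3 was at 293, 206 and 169 CPM in the bulk controls and at 337, 343 and 303 in the bulk CRISPR libraries, again without overlap.

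**Figure D2:**
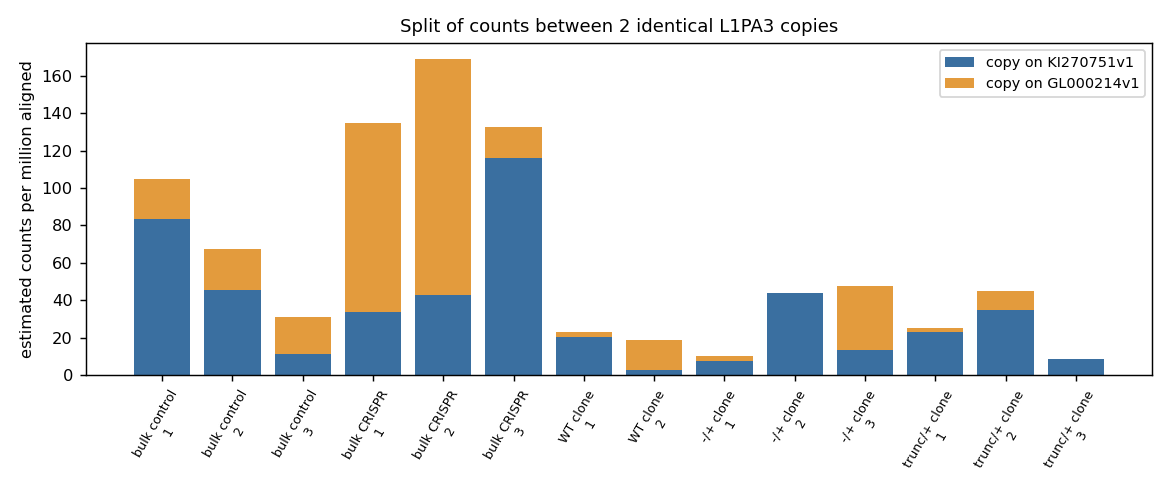
The estimated counts of the identical L1PA3 pair in each of 14 libraries (CPM), divided by colour into what was assigned to each of the 2 copies. The sum was 31.3 to 169 CPM in the bulk libraries and 8.95 to 47.6 in the clones, while the part given to the first copy ran from 14.02% to 99.4%.

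The bulk comparison asks what loss of Z18 in a mixed population does to this RNA. Summed over all copies, sense L1 RNA was at 1904, 1201 and 898 CPM in the 3 bulk controls and at 2432, 2488 and 2195 CPM in the 3 bulk CRISPR libraries. Every CRISPR library was above every control, and the controls were further apart than the CRISPR libraries (1334 ± 516 against 2372 ± 155, SD, n = 3 each). The difference was 0.90 on the log2 scale, a ratio of geometric means of 1.86 (two-sided exact permutation test, p = 0.1, the smallest p that 3 against 3 can give). By unique counts alone the values were 1505, 903 and 671 against 1966, 1950.1 and 1731 CPM. Scaling the libraries by TMM, which centres the TE subfamilies on each other, left 0.49. Without bulk control 3, the library with high antisense and rRNA signal, the difference was 0.65, and without bulk control 1 it was 1.19. The summed fibroblast and melanoma markers were also higher, and the epithelial markers lower, in every bulk CRISPR library than in every bulk control, and their part in this difference was not tested.

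Antisense counts of the same subfamilies did not follow the sense counts. They were at 908, 821 and 2046 CPM in the bulk controls and at 839.5, 1001 and 904 CPM in the bulk CRISPR libraries. Older L1 copies were at 5295, 4823 and 2902 CPM in the controls and at 7485, 6217 and 5666 CPM in the CRISPR libraries, again with every CRISPR library higher. The ratio of L1HS and L1PA to older L1 counts, which needs no library size, was 0.360, 0.249 and 0.309 in the controls against 0.325, 0.400 and 0.387 in the CRISPR libraries. These ranges overlapped, and the log2 difference was 0.29 (exact permutation p = 0.2). Within the bulk libraries, SINE copies, which are another TE class, were at 16512, 29161 and 21337 CPM in the controls and at 20549.8, 17890.2 and 16669 in the CRISPR libraries.

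**Figure D3:**
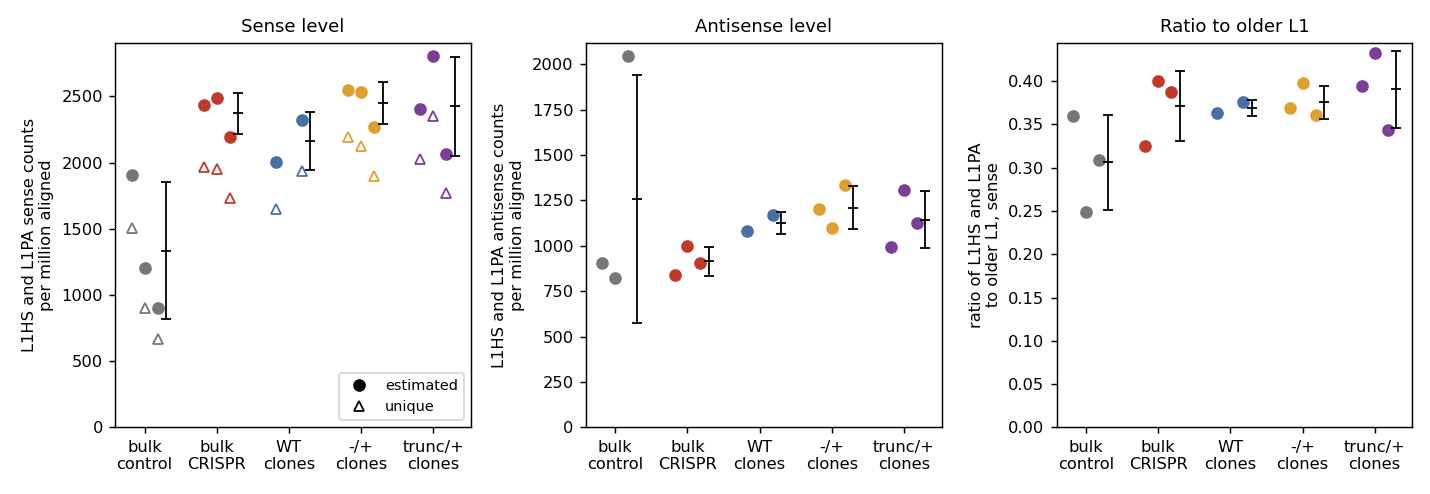
Sense counts of L1HS and L1PA copies by estimated and by unique assignment, antisense counts (all CPM) and the ratio to older L1 counts, for each of 14 libraries by group, with black bars for the mean and SD of estimated, antisense and ratio values. The 3 bulk CRISPR libraries (2195 to 2488 CPM) lie above the 3 bulk controls (898 to 1904) in sense counts, and bulk control 3 has the highest antisense level (2046).

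All 18 subfamilies had a higher mean in the bulk CRISPR libraries than in the bulk controls, which was the direction of 75.2% of the 945 TE subfamilies tested. The fold changes ran from 0.64 for L1PA14 to 1.09 for L1PA10 on the log2 scale, with standard errors (SE) of 0.26 to 0.41. Their median was 0.85, against 0.36 over all subfamilies tested. L1HS, the mobile subfamily, was at 87.4, 44.6 and 37.0 CPM in the controls and at 107, 107 and 86.3 CPM in the CRISPR libraries, a log2 fold change of 0.83 ± 0.34 (SE). The lowest CRISPR library was just below the highest control, so the L1HS groups overlapped. L1PA5 was at 206, 134 and 133 CPM in the controls and at 289.6, 313 and 294 CPM in the CRISPR libraries (0.92 ± 0.26). L1PA10 was at 78.1, 46.3 and 24.0 CPM in the controls and at 111, 107 and 97.6 in the CRISPR libraries. Neither L1PA5 nor L1PA10 overlapped between groups.

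No L1 subfamily passed the adjusted threshold of 0.05 in edgeR's quasi-likelihood test (adjusted p 0.227 to 0.353), nor did any other TE subfamily (0% of 945). At an unadjusted p under 0.05, 12 of the 18 were higher and 0 lower, where 17.2% of all subfamilies tested were higher and 2.33% lower. DESeq2 called 0 of the 18 with the aligned library sizes and 10 of all 945 subfamilies (1.06%), and with its own size factors it called 0 of the 18 and 2.96% of all. Of the 18 subfamilies, 13 were higher in every CRISPR library than in every control (12 by unique counts), against 28.6% of all subfamilies tested (30.1% by unique counts). The 5 that overlapped were L1HS, L1PA2, L1PA11, L1PA14 and L1PA15-16. Bulk control 1 decided the calls: without it, edgeR called 13 of the 18, all as higher, where it called 18% of the 960 subfamilies then tested (15.3% as higher). The fold changes of the 18 then ran from 0.72 (L1PA15-16, not called) to 1.58 (L1PA10). These calls and fold changes have bulk controls 2 and 3 as the only controls. Both are among the shallowest libraries, and bulk control 3 is the library with high antisense and rRNA-class counts. With TMM scaling the fold changes were 0.26 to 0.75 and 0 of 18 were called, while 47.9% of all subfamilies were then on the higher side.

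**Figure D4:**
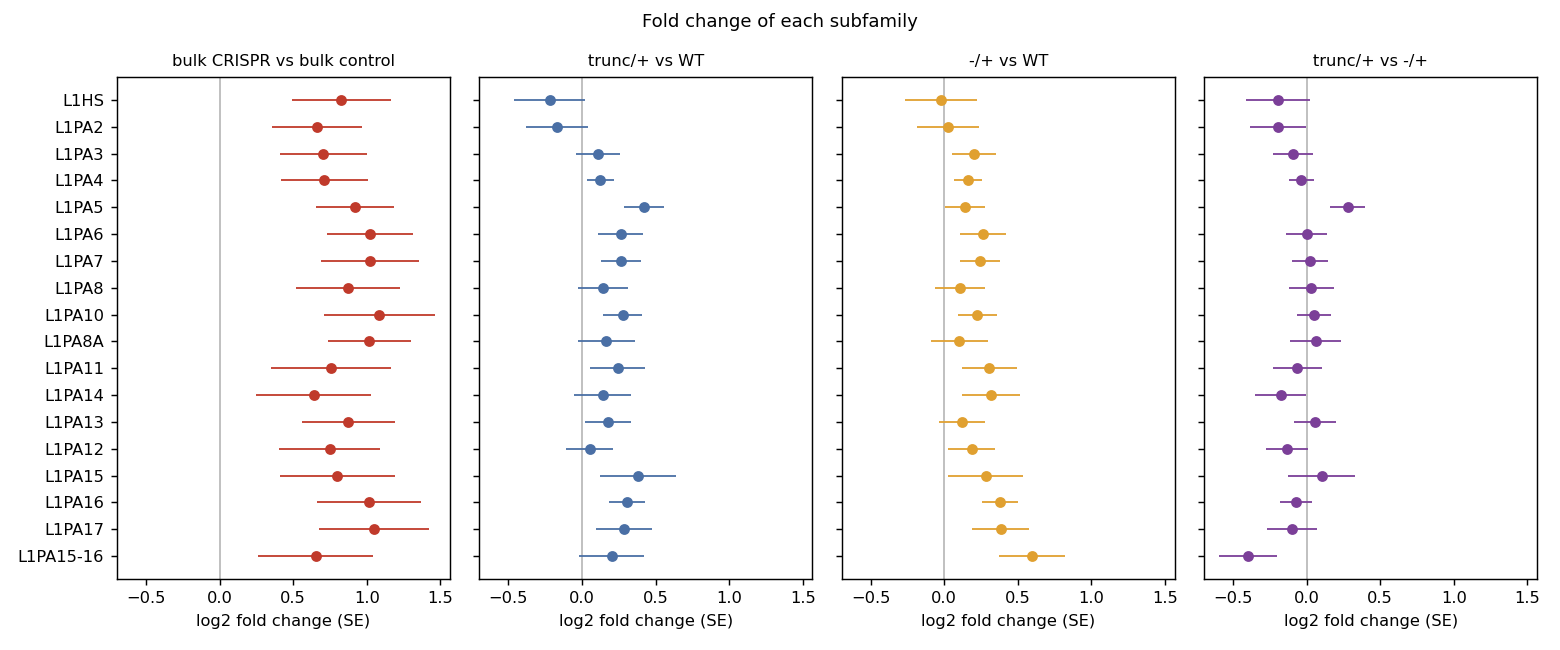
The log2 fold change with its SE (edgeR) of each of the 18 subfamilies in 4 comparisons. In the bulk comparison all 18 points lie to the right of 0 (0.64 to 1.09), while in the clone comparisons they run from -0.40 to 0.60.

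The sum was split by position, length and age of the copies. Copies outside the genes of the gene files had 400.6 to 888 CPM in the controls and 1018 to 1178 CPM in the CRISPR libraries (log2 difference 0.92). Copies inside a gene on its own strand, which can be read as part of the gene's transcript, had 380.0 to 798 and 947 to 1053 CPM (0.92). Copies inside a gene on the other strand had 117 to 219 and 230.5 to 258 CPM (0.74). By length, copies of 6000 bp or more differed by 0.87 and shorter copies by 0.91. By age, L1HS to L1PA5 differed by 0.80 and L1PA6 to L1PA17 by 1.05. None of these 7 sets overlapped between the bulk groups. The 643 copies that touch a GENCODE exon on the same strand did overlap, at 120.2 to 310.4 CPM in the controls and 309.8 to 336 in the CRISPR libraries.

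The 137 copies with both open reading frames had 10.6 to 32.9 CPM in the controls and 31.8 to 39.02 in the CRISPR libraries (1.05), with an overlap between bulk control 1 and the lowest CRISPR library.

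At the level of single copies, 925 of the 23779 passed the filter on low counts in the bulk fit. A copy can pass it through the group where it is high, so the counts over these 925 describe them and are no support for a direction. No L1 copy passed the adjusted threshold in edgeR, where 1 of 14031 TE copies did (0.00713%). At an unadjusted p under 0.05, 179 L1 copies were higher and 10 lower, while 7.9% of all copies tested were higher and 4.47% lower. Of the 925, 782 had a higher mean in the CRISPR libraries, where 59.9% of all copies tested did (52.1% with TMM scaling). The median log2 fold change was 0.96 over the L1 copies tested and 0.27 over all copies tested. DESeq2 with the aligned library sizes called 31 L1 copies as higher and 1 as lower, where it called 1.32% of all copies tested (2.12% with its own size factors). The number of calls therefore depends on the tool. Without bulk control 1, edgeR called 41 of 1169 as higher and 1 as lower, where it called 2.16% of 19234 copies (1.47% as higher).

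Of the 5 young copies with the highest unique level, 3 lie on the strand of a gene that holds them. The L1HS copy in an intron of RB1, the retinoblastoma tumour suppressor gene, had 1.20, 0.108 and 0.192 unique CPM in the controls against 2.17, 1.99 and 1.59 in the CRISPR libraries. The L1PA2 copy that overlaps an exon of ATM, a DNA damage kinase gene, had 1.65, 0.0540 and 0.0640 unique CPM in the controls against 2.46, 2.50 and 2.65 in the CRISPR libraries. In both, by unique counts, bulk controls 2 and 3 were near the level of single fragments, and bulk control 1 lay between them and the CRISPR libraries. By estimated counts both copies overlapped between the groups. Bulk control 1 was then at 2.68 (RB1) and 3.90 (ATM) CPM, and the lowest CRISPR library at 2.30 and 3.53. The L1PA2 copy in an intron of RFX7, a transcription factor gene, had 6.90, 3.78 and 2.31 unique CPM in the controls against 6.48, 8.23 and 6.80 in the CRISPR libraries, and the groups overlapped. The fold changes by estimated counts were 1.11 ± 0.72, 0.88 ± 0.60 and 0.74 ± 0.51 (log2 ± SE), with edgeR adjusted p of 0.534, 0.559 and 0.561. The host genes RB1 and ATM were at 2.68 and 2.74 FPKM in bulk control 2, where their levels were lowest, and at 9.43 to 11.1 and 4.88 to 5.56 FPKM in the CRISPR libraries. This sets only the lowest control against the CRISPR libraries, so it does not show whether the groups overlapped in these genes.

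An L1PA2 copy inside CCDC102B on the opposite strand to that gene, chr18:68784835-68790853, overlapped between the bulk groups, at 2.29, 1.24 and 1.99 against 2.17, 1.92 and 2.00 unique CPM.

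**Figure D5:**
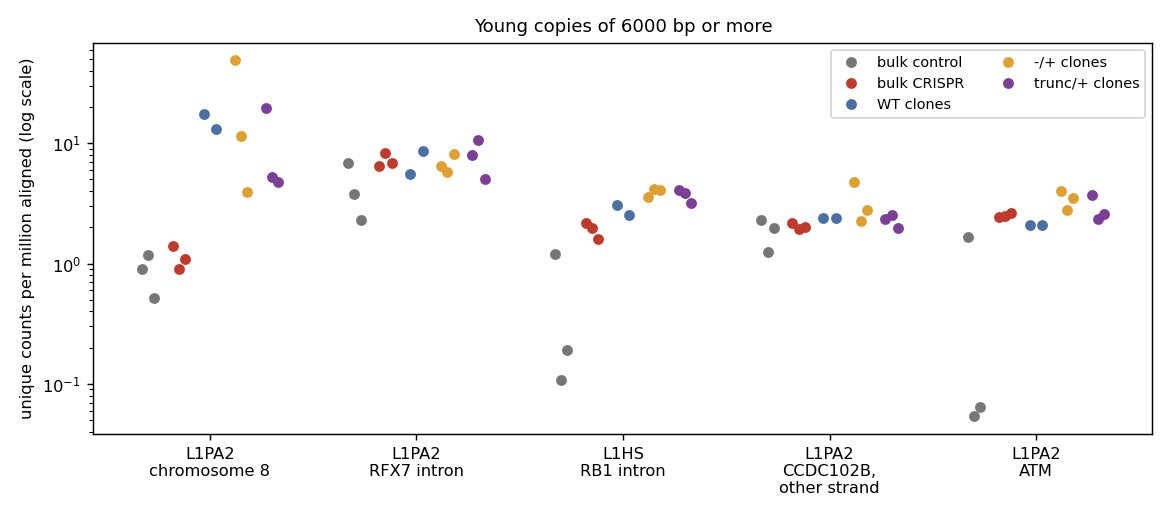
Unique counts (CPM, log scale) in each of 14 libraries for the 5 L1HS or L1PA2 copies of 6000 bp or more with the highest mean unique level. The RB1 and ATM copies are lowest in bulk controls 2 and 3 (0.0540 to 0.192), and the L1PA2 copy on chromosome 8 is at 0.512 to 1.39 in the bulk libraries and 3.94 to 48.7 in the clones.

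The young copy with the highest unique level separated the bulk libraries from the clones. It is an L1PA2 at chr8:83447143-83453169 (+ strand), 6027 bp long, with no annotated gene. It had 0.900, 1.19 and 0.512 unique CPM in the bulk controls and 1.39, 0.897 and 1.09 in the bulk CRISPR libraries. In the clones it had 17.4 and 13.2 in WT, with 48.7, 11.5 and 3.94 in -/+ and 19.5, 5.28 and 4.80 in trunc/+. All 8 clones were above all 6 bulk libraries, and the 3 clone groups overlapped. Cloning and every other step that differed between bulk and clone libraries cannot be told apart here. An L1PA3 copy in an intron of ZFPM2-AS1, chr8:105789090-105795234 (- strand), had 2.05 to 11.4 unique CPM in the bulk libraries and 10.1 to 37.4 in the clones.

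The other 2 of the 5 copies with the highest mean level were shorter. An L1PA4 copy at chr21:9000001-9002240 (+ strand) had 49.3, 19.2 and 9.73 CPM in the bulk controls and 37.6, 43.6 and 41.7 in the bulk CRISPR libraries, and the groups overlapped through bulk control 1. In the clones it ran from 1.73 to 29.6 CPM, both of these in -/+ clones. An L1PA5 copy at chr9:64856216-64858845 (- strand), of which 45.2% of counts were unique, had 10.2, 2.55 and 4.003 CPM against 17.3, 13.1 and 20.2, without overlap (1.59 ± 0.56, edgeR adjusted p = 0.299, or 0.0409 without bulk control 1).

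The copies with the smallest p in the bulk comparison were not called by edgeR with the filter on low counts and all 6 libraries, but some were called under other settings. The ENPP7P2 intron L1PA5 copy had 0.0375, 0.0540 and 0.0640 CPM in the controls against 1.28, 1.19 and 0.936 CPM in the CRISPR libraries, nearly all of it unique (4.37 ± 0.91, adjusted p = 0.152). It was called by DESeq2 with the aligned library sizes (adjusted p = 0.0135) and by edgeR without bulk control 1 (adjusted p = 0.0493). In the clones it ran from 0.167 to 8.94 CPM, with 5.09 and 1.40 in the 2 WT clones. An L1PA5 copy in an intron of SCAP, a sterol sensor gene, at chr3:47467754-47468941 (- strand), was at 0 in all 3 controls and at 0.391, 1.03 and 1.06 CPM in the CRISPR libraries (edgeR adjusted p = 0.157, DESeq2 adjusted p = 0.00655). A short L1PA10 copy at chr5:70138897-70139305 (- strand) in the repeated SMN region was at 0, 0 and 0.0935 CPM against 2.23, 1.30 and 0.367 CPM, of which 12.4% was unique over all libraries. DESeq2 called it (adjusted p = 0.00814), as did edgeR with no filter on low counts (adjusted p = 0.0397). Near-identical copies of this region can share reads, so its place is uncertain. These 3 copies were picked by their p and passed the filter on low counts only through the CRISPR libraries, where they are high. Their calls are therefore no support for a direction.

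On the lower side, the smallest p belonged to an L1PA15 copy of 386 bp at chr17:6775060-6775445 (+ strand), inside an exon of the interferon-induced gene XAF1. It had 2.06, 2.59 and 0.832 CPM in the controls against 0.178, 0 and 0.0312 in the CRISPR libraries (-4.67 ± 0.98, adjusted p = 0.152 in edgeR). It was called by DESeq2 (adjusted p = 0.00144), and by edgeR with no filter on low counts (adjusted p = 0.0295) or without bulk control 1 (adjusted p = 0.0493). It was picked by its p and passed the filter only through the controls, where it is high, so these calls are no support for a direction. XAF1 itself was at 2.32, 2.82 and 0.766 FPKM in the controls and at 0.126, 0 and 0.128 in the CRISPR libraries, which is under the filter of the gene fit, so both the copy and its host gene were lower in every CRISPR library. An L1PA7 copy inside ACO1 on the opposite strand, chr9:32444665-32448809, had 2.21, 0.863 and 0.961 against 0.249, 0.288 and 0.0624 CPM (-2.74 ± 0.81, edgeR adjusted p = 0.246, DESeq2 adjusted p = 0.0207 with its own size factors). That copy too passed the filter only through the controls. An L1PA4 copy in an intron of DZIP3, chr3:108655512-108661648 (+ strand), had 1.46, 2.48 and 3.27 against 0.463, 0.833 and 0.843 CPM (-1.74 ± 0.61, adjusted p = 0.297). All 3 copies were picked by their p, so their lack of overlap between the bulk groups is no further support.

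Among the clones the levels of all copies together were close. Sense L1 RNA was at 2007 and 2320.4 CPM in the WT clones. It was at 2546, 2533 and 2267 CPM in the -/+ clones and at 2405, 2806 and 2062 CPM in the trunc/+ clones. The lowest -/+ clone and the lowest trunc/+ clone were both below the higher WT clone, so no pair of groups was separated. The log2 differences were 0.16 for trunc/+ against WT (exact permutation p = 0.4), 0.18 for -/+ against WT (p = 0.3) and -0.02 for trunc/+ against -/+ (p = 1). The smallest p that 3 clones against 2 can give is 0.1. The ratio to older L1 was 0.363 and 0.376 in WT, with 0.369, 0.397 and 0.361 in -/+ and 0.395, 0.433 and 0.344 in trunc/+ (differences 0.07, 0.02 and 0.05, exact permutation p of 0.7, 0.9 and 0.7). The comparisons with WT share the same 2 clones.

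In the comparison of trunc/+ with WT, 16 of the 18 subfamilies had a higher mean in trunc/+, where 61.3% of all 976 subfamilies tested did. The exceptions were the 2 youngest, L1HS at -0.22 ± 0.24 and L1PA2 at -0.17 ± 0.21 on the log2 scale. By unique counts the older L1PA12 was lower as well (-0.07, against 0.05 ± 0.16 by estimated counts). L1HS was at 107 and 109.6 CPM in WT and at 94.8, 125 and 59.3 CPM in trunc/+, so the trunc/+ clones lay on both sides of the WT clones. The largest fold change was that of L1PA5, which had 255 and 298 CPM in WT and 385, 416 and 311 CPM in trunc/+ (0.42 ± 0.14, adjusted p = 0.953 in edgeR). No subfamily was called (0% of 976), and DESeq2 called 0 of the 18. At an unadjusted p under 0.05, 2 L1 subfamilies, L1PA5 and L1PA16, were higher and 0 lower, against 3.07% of all subfamilies higher. The 5 that were higher in every trunc/+ clone than in both WT clones were L1PA5, L1PA7, L1PA10, L1PA16 and L1PA17, against 10.9% of all subfamilies tested.

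For -/+ against WT, 17 of the 18 had a higher mean, where 63.5% of all subfamilies did, with fold changes from -0.02 (L1HS) to 0.60 (L1PA15-16). L1PA15-16, the smallest subfamily, was at 4.84 and 6.82 CPM in WT and at 9.78, 7.84 and 8.88 CPM in -/+ (0.60 ± 0.22). L1PA16 was at 94.3 and 107 CPM in WT and at 142, 136 and 115 in -/+ (0.38 ± 0.12). These 2 were at an unadjusted p under 0.05, as were 1.64% of all subfamilies on the higher side, and none was called by edgeR (adjusted p = 0.995, 0% of 976) or, of the 18, by DESeq2. In 9 of the 18, every -/+ clone was above both WT clones, against 13.6% of all subfamilies tested. The summed older L1 copies were separated in the same way, at 5533.5 and 6176 CPM in WT and at 6909, 6375 and 6279 in -/+. In trunc/+ the older copies were at 6092, 6481 and 5992 CPM and overlapped with WT.

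For trunc/+ against -/+, 7 of the 18 subfamilies had a higher mean in trunc/+, where 46% of all subfamilies did. The fold changes ran from -0.40 for L1PA15-16 to 0.28 for L1PA5 (± 0.20 and ± 0.12), and edgeR called none (adjusted p 0.994 to 1.00, 0% of 976), nor did DESeq2 among the 18. L1PA5 was the only 1 at an unadjusted p under 0.05, with 324, 318 and 275 CPM in -/+ and 385, 416 and 311 CPM in trunc/+, and its groups overlapped (2.36% of all subfamilies were past that p on the higher side and 1.84% on the lower). L1PA15-16 was the only 1 of the 18 without overlap, with every trunc/+ clone lower (4.3% of all subfamilies were lower in this way), but by unique counts it overlapped, with 1 trunc/+ clone at 7.40 CPM and 1 -/+ clone at 7.31.

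The same split was made in the clones. Copies inside a gene on its own strand were at 858 and 987 CPM in WT, at 1003 to 1153 CPM in -/+ and at 1019.5 to 1266 CPM in trunc/+. Both edited groups lay above both WT clones (log2 differences 0.22 and 0.27). Copies outside genes were at 880.0 and 1044 CPM in WT, at 1013 to 1148 in -/+ and at 789 to 1199 in trunc/+, and overlapped (0.18 and 0.05). In GENCODE, intron copies on the same strand gave the same separation (0.23 and 0.25), and copies with no gene on either strand overlapped (0.14 and 0.08). These sets were compared as descriptions, and the difference between them was not tested. The 303 L1HS copies of 6000 bp or more had 63.1 and 68.0 CPM in WT, with 58.3 to 75.5 CPM in -/+ and 34.7 to 76.9 CPM in trunc/+.

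Of single copies, 1826 of the 23779 passed the filter in the clone fit, and edgeR called none of them in any of the 3 comparisons (0% of 21634 TE copies each). DESeq2 with the aligned library sizes called 0 of them as well. At an unadjusted p under 0.05, 75 were higher and 36 lower in trunc/+ against WT, where 2.61% and 1.47% of all copies were. In -/+ against WT 50 were higher and 19 lower (1.83% and 0.795% of all copies), and in trunc/+ against -/+ 35 were higher and 58 lower (1.91% and 1.82%).

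Several copies with the smallest p among clones had counts in some clones and 0 in others. An L1PA5 copy in an intron of the pseudogene DUXAP8, chr22:15802190-15803400 (+ strand), was at 0 in both WT clones, at 0.512, 1.48 and 0.752 CPM in -/+ and at 0.574, 0.521 and 0.378 in trunc/+, with edgeR adjusted p of 1.00 and 0.883. Of the counts of this copy, 34.2% were unique over all libraries, and trunc/+ clone 3 had 0 unique counts. With no filter on low counts its edgeR adjusted p for -/+ against WT was 0.0136. An L1PA5 copy in an intron of ANKRD30A, chr10:37202228-37205611 (+ strand), had 2.12, 14.6 and 0 CPM in the 3 trunc/+ clones and 0 in the other 5 clones. An L1PA13 copy in an exon of POTEC, a cancer-testis gene, chr18:14507337-14509789 (- strand), had 2.02, 4.18 and 0 CPM in the same clones and 0 in the other 5. Both were seen in the same 2 trunc/+ clones and not in the third. Neither was called by edgeR with the filter on low counts and all 8 clones. With no filter both were called in trunc/+ against WT (adjusted p of 1.24e-15 and 6.48e-06) and against -/+ (6.13e-22 and 1.97e-08). In trunc/+ against -/+ both were also called without WT clone 1 (0.0188 and 0.0462), and the ANKRD30A copy without WT clone 2 (0.0327). In the bulk libraries the ANKRD30A copy had counts in 5 of 6 and the POTEC copy in 6 of 6. The DUXAP8, ANKRD30A and POTEC copies were picked by their p and, among the 8 clones, have counts only in edited clones. These calls are therefore no support for a difference, and those of ANKRD30A and POTEC rest on 2 trunc/+ clones with the third at 0.

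Other copies were at 0 in every clone of 1 genotype. An L1PA7 copy at chr3:109647589-109653403 (+ strand) in an exon of LINC01205 had 1.01 and 0.993 CPM in WT, with 0, 0.373 and 0.879 in -/+ and 0 in all 3 trunc/+ clones. An L1PA6 copy outside genes at chr15:87256778-87260584 (- strand) had 0 and 0.0931 CPM in WT, with 0, 2.72 and 1.97 in -/+ and 0 in all 3 trunc/+ clones. An L1PA10 copy in an intron of MIR31HG, chr9:21521617-21521948 (- strand), was at 0 in both WT clones, at 0.0697, 0.907 and 0.586 CPM in -/+ and at 0.352, 0.323 and 0.0711 in trunc/+. With the filter on low counts and all 8 clones, none of these passed the adjusted threshold in edgeR (adjusted p 1.00 in each). With no filter the LINC01205 copy was called in trunc/+ against WT (adjusted p = 0.000580) and against -/+ (0.0313). The L1PA6 copy was called in trunc/+ against -/+ with no filter (adjusted p = 7.49e-07) and without WT clone 1 (0.0462). The LINC01205 and L1PA6 copies were picked by their p and enter these fits through the other clones, where they are higher. Their calls are no support for a difference. The MIR31HG copy was picked by its p too, so its absence from the WT clones is no support either.

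Further copies had graded differences. An L1PA10 copy in an exon of APPAT, chr2:97426678-97427938 (- strand), had 0.846 and 0.729 CPM in WT, with 1.35, 0.800 and 1.06 in -/+ and 3.39, 3.30 and 2.24 in trunc/+, so trunc/+ was above both other groups (1.91 ± 0.46 against WT, edgeR adjusted p = 1.00). Over all libraries 32.6% of its counts were unique. By unique counts it had 0.433 and 0.310 CPM in WT, with 0.242, 0.107 and 0.461 in -/+ and 1.82, 0.467 and 0.640 in trunc/+. The gap between the groups was then narrow. The L1PA13 copy near F8A on chromosome X had 0.794 and 2.01 CPM in WT, with 3.85, 5.39 and 4.77 in -/+ and 5.64, 7.71 and 3.73 in trunc/+. It had 0 unique counts in every library, so its level rests on reads shared with other copies. An L1HS copy in LINC00824, chr8:128453003-128459020 (- strand), with both reading frames complete (338 and 1275 codons), had 1.45 and 0.816 CPM in WT, with 0.104, 1.27 and 1.37 in -/+ and 0.169, 0.134 and 0.0708 in trunc/+, of which 17.5% was unique over all libraries. The APPAT, F8A and LINC00824 copies were picked by their p, so the gaps between their groups are no support for a difference.

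Low L1PA2, L1PA3 and L1PA4 copies completed the set with the smallest p. An L1PA3 copy at chr4:116405697-116411731 (+ strand) had 1.39 and 0.558 CPM in WT and 0.0615, 0.166 and 0 in trunc/+. An L1PA2 copy at chrX:107364337-107370349 (+ strand) had 0.641, 0.703 and 0.777 CPM in -/+ and 0.197, 0.113 and 0.0402 in trunc/+, without overlap. An L1PA2 copy at chr9:74424275-74430304 (+ strand) had 1.06, 0.841 and 0.489 in -/+ and 0.129, 0 and 0 in trunc/+. In the other direction, 3 copies were at 0 in 2 or 3 of the -/+ clones: an L1PA2 at chr12:70013066-70019067, an L1PA3 at chr14:50949416-50950866 and an L1PA4 at chr6:112105579-112106548, with 0.169 to 0.505 CPM in the WT clones. All had edgeR adjusted p of 1.00. These copies were picked by their p, so the gaps between their groups are no support for a difference.

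Genes known to repress, degrade or assist L1 RNA were read from the gene files. Of 76 list members in the files, 66 passed the FPKM filter in the bulk fit, and 1 of them passed the adjusted threshold in limma, where 0.347% of 12114 genes did (0.19% higher and 0.157% lower). It was BST2 (tetherin), an interferon-induced membrane protein that holds virions at the cell surface. BST2 was at 6.78, 16.2 and 18.3 FPKM in the bulk controls and at 0.301, 0.109 and 0.228 FPKM in the CRISPR libraries (-3.50 ± 0.35 on the log2(FPKM + 1) scale, limma adjusted p = 0.00937). It passed the filter of 1 FPKM or more in 3 bulk libraries only through the 3 controls, where it is high, so its call rests on that filter. With no filter on low values the adjusted p was 0.0699, and without bulk CRISPR 1 or 2 it was 0.0590 and 0.0878. Over all alternatives in which it was tested the adjusted p ran from 1.37e-05 to 0.0878. When any bulk control was left out it failed the filter and was not tested, and 7 other list members were then called without bulk control 1 (11.1% of all genes were, 8.25% as higher).

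The genes of RNA decay and of L1 silencing were not called in the bulk libraries. MTREX, the helicase shared by NEXT and PAXT, was at 43.2, 20.1 and 39.3 FPKM in the controls and at 33.0, 36.2 and 39.2 in the CRISPR libraries. ZCCHC8, the NEXT scaffold, was at 8.28, 1.31 and 2.68 against 4.08, 4.91 and 4.56 FPKM. The HUSH subunit TASOR, which silences young L1 copies, was at 10.5, 5.03 and 8.13 against 8.76, 11.2 and 11.8 FPKM, and its partner MPHOSPH8 at 19.4, 28.8 and 13.3 against 25.4, 21.6 and 19.2. Each of these groups overlapped. By list, limma called 0 of 12 NEXT, PAXT and exosome genes, 0 of 14 HUSH and KRAB silencing genes, 0 of 5 DNA methylation genes, 1 of 18 cytoplasmic and antiviral restriction genes and 0 of 17 L1 cofactors. At an unadjusted p under 0.05, 5 of the 66 were higher and 4 lower, where 14% and 6.93% of all genes were. The median over the list was 0.12, against 0.18 over all genes.

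In the clones limma called 0 of the 70 list members tested in each comparison, where it called 1, 1 and 0 of 12904 genes (0.00775%, 0.00775% and 0%) in trunc/+ against WT, -/+ against WT and trunc/+ against -/+. At an unadjusted p under 0.05 there were 7, 1 and 5 members lower and 0 higher, where 4.3%, 1.11% and 3.16% of all genes were lower. NAP1L1, a histone chaperone found with L1 particles and chosen after its values were seen, was in the first 2 of these sets, at 237 and 245 FPKM in WT, at 185, 154 and 155 in -/+ and at 145, 161 and 170.5 in trunc/+ (-0.60 ± 0.13 and -0.55 ± 0.13, limma adjusted p of 0.536 and 1.00). MTREX was at 57.5 and 57.9 FPKM in WT and at 38.0, 46.9 and 44.1 in trunc/+ (-0.42 ± 0.14, adjusted p = 0.612). TRIM28, the KRAB corepressor, was at 146 and 147 in WT, at 117, 151 and 165 in -/+ and at 119, 116 and 75.04 in trunc/+. The median of the list was -0.16, -0.0029 and -0.14 in the 3 comparisons, against -0.02, -0.02 and -0.0014 over all genes.

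The other list members fixed by name are given as ranges. Over all 14 libraries SETDB1, the H3K9 methyltransferase of KRAB and HUSH silencing, was at 11.5 to 20.4 FPKM, MORC2 at 2.57 to 10.9 and the RNA helicase MOV10 at 10.2 to 23.7. The deaminase ADAR was at 26.1 to 52.4, ZC3HAV1 (ZAP) at 6.96 to 17.2, SAMHD1 at 5.95 to 24.4 and PABPC1, which binds the L1 poly(A) tail, at 502 to 808 FPKM. L1TD1, an ORF1-derived gene, was listed at 0 in every library.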

How the data were processed

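The authors ran SQuIRE (no version named) on reads trimmed with cutadapt 4.6 (version from the submitters' processing notes) and aligned to hg38 with the RepeatMasker annotation. The deposited TE files give, per copy and transcript strand, an estimated count shared among copies by expectation maximization, a unique count, the divergence from the consensus (a score, printed here as a percentage) and the aligned fragments of the library. The deposited gene files give StringTie FPKM values, from which depth is unknown.

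The members and lists were chosen with earlier results of these data known. Counts were divided by aligned fragments (CPM). Estimated counts, rounded to whole numbers, were tested over all TE subfamilies or copies with edgeR 4.0.16 (R 4.3.3; aligned fragments as library size, minimum count 10), with 6 bulk libraries in 1 fit and 8 clones in another. DESeq2 1.42.0 was an alternative. FPKM were tested as log2(FPKM + 1) with limma 3.58.1, for genes at 1 FPKM or more in 3 bulk or 2 clone libraries. P-values were adjusted by Benjamini-Hochberg over all features tested (threshold 0.05). For summed CPM and ratios, log2 values were permuted between groups exactly (two-sided). Named copies were the 5 with the highest mean CPM, the 5 L1HS or L1PA2 copies of 6000 bp or more with the highest unique CPM, and in each comparison the 3 with the smallest p in each direction. Named genes were Z18, list members past the threshold, 13 further list members fixed by name, hosts of named copies and NAP1L1, chosen after its values were seen. Host genes were the RefSeq spans of the gene files and GENCODE release 44. Sequences and open reading frames (from ATG) were read from hg38. Tests were checked on simulated data. Some sequences of young copies are not reported here.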

Additional observations from a re-analysis of the deposited data

How the results depend on the processing

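Of 230 alternatives to the sums, ratios and counts of calls, 202 kept the direction and their side of the threshold or, for counts of calls, stayed within 1.5 times. Many of these 202 are counts of calls that stayed at 0. The permutation tests of sums and ratios cannot pass that threshold, since their smallest p is 0.1 or more. This holds for 3 libraries against 3 and for 3 against 2. Sizes within these 202 also moved, as with TMM scaling, where the bulk log2 difference of the summed level was 0.49 in place of 0.90. Leaving out 1 library in turn, the log2 difference of the summed level ran from 0.65 to 1.19 (bulk), 0.05 to 0.27 (trunc/+ against WT), 0.08 to 0.28 (-/+ against WT) and -0.14 to 0.09 (trunc/+ against -/+), the last turning positive without -/+ clone 1 (0.0054), -/+ clone 2 (0.0015) or trunc/+ clone 3 (0.0872). The ratio to older L1 ran from 0.15 to 0.41, -0.0024 to 0.16, -0.0175 to 0.0518 and -0.0261 to 0.14. It turned without trunc/+ clone 2 (-0.0024 and -0.0261), WT clone 1 (-0.0016) or -/+ clone 2 (-0.0175), and with copies outside genes only it was -0.0298, -0.0017 and -0.0281 in the 3 clone comparisons. Calls of L1 subfamilies in the bulk comparison ran from 0 to 13 (13 without bulk control 1) and those of L1 copies from 0 to 42 (42 without bulk control 1). DESeq2 called 32 copies with either library size, and without the filter on low counts edgeR called 2 in the bulk comparison and 17, 9 and 11 in the clone comparisons in the order above. Leaving out 1 clone gave 0 to 2, 0 to 2 and 0 to 4 copies (2, 2 and 4 without WT clone 1, and 1 in the last without WT clone 2). Calls of L1 control genes in the bulk comparison ran from 0 to 7 (7 without bulk control 1, 0 without bulk control 2 or 3 or bulk CRISPR 1 or 2) and were 0 without the filter on low values. The cause was not tested. Leaving out all 148 copies on unplaced or unlocalized contigs, an alternative chosen after seeing the data, moved the bulk difference of the summed level to 0.88. With the replicate number as a block, edgeR called 0 L1 subfamilies and 0 L1 copies in every comparison, and limma 1 control gene in the bulk comparison and 0 in the clones. Over all features, calls in the bulk comparison then went from 0 to 7 subfamilies, 1 to 5 copies and 42 to 220 genes. Same-numbered bulk libraries had correlations of their deviations of -0.11, -0.15 and 0.11, and same-numbered clones of -0.27 to 0.25. Not every sample correlated best with its own number. With 2 or 3 libraries in a group, these correlations cannot decide whether the numbers pair the samples. Of the alternatives for single subfamilies, copies and genes, 3 lost a call (BST2), 49 gained 1 and 190 moved in other ways. Fold changes near 0 that were not called could change sign between settings. For L1PA12 in trunc/+ against WT the log2 fold change was 0.05 by estimated and -0.07 by unique counts. For L1HS in -/+ against WT it was -0.02 and 0.01. The depth of bulk controls 2 and 3 limits the copies whose level there is near single fragments.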
